A study of Homo sapiens with 10 samples.

Results

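In RWPE1 cells with the ERG point mutant P436A, 38 sites carried both an ERG peak and an EWS peak. A site was counted when an ERG peak and an EWS peak had at least 1 bp in common. The 38 sites came from 1746 ERG peaks and 1786 EWS peaks, and each site joined exactly 1 peak of each list. The series holds 30301 peaks in all. Of the 38 sites, 14 lay on chromosome 20, 8 on chromosome 9 and 6 on chromosome 1, and 3 lay within 9427 bp of each other on chromosome 22. A peak of another list of the series was found at 17 of the sites, and 21 sites were found in these 2 lists alone. Over the whole lists, 73.4% of the ERG peaks and 90.4% of the EWS peaks met no peak of the other samples. Peaks recurred little even between replicates. Replicates 1 and 2 of the unmutated form of ERG held 1901 and 1953 peaks, and 116 pairs of these overlapped. Absence from the other lists thus does not mark the 21 sites as particular to the P436A cells.

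RWPE1 is an established line from normal human prostate epithelium, and here it stably expressed an introduced ERG and was kept under puromycin and hygromycin. The P436A cells carried ERG with alanine in place of a single proline, and the cells set beside them carried wild-type ERG. VCaP is a prostate cancer line, for which the labels name no introduced ERG. Chromatin was precipitated with the 9FY antibody to ERG or the G5 antibody to EWS, and 7 of the 10 samples have a peak list. The P436A cells have 1 list per antibody, wild-type ERG in RWPE1 has 2 lists, and EWS with wild-type ERG, VCaP ERG and VCaP EWS have 1 each. The 3 input samples were not used here. The labels do not say whether the RWPE1 lines are pools or single clones, or whether the 2 wild-type lists came from separate cultures.

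ERG is a transcription factor of the ETS family, whose members bind DNA at sites with a GGAA core. It is normally made in endothelial and blood cells, and in prostate cancer it is often switched on by a gene fusion that puts it under an androgen-responsive promoter. EWS is an RNA-binding protein of the FET family, known from the EWS-FLI1 and EWS-ERG fusions of Ewing sarcoma, and it can act as a co-activator of transcription. The study asked whether the ETS factors rearranged in prostate cancer are those that bind EWS, and the P436A change is known from that work as one that weakens the contact of ERG with EWS. The shared sites are the places where the ERG list and the EWS list of cells with this form of ERG both had a peak.

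The lists give a chromosome, a start and an end for each peak, with no height or score, so the depth behind a peak is unknown. All positions below are 1-based hg19 positions. No gene annotation or sequence of that build was used here, and genes, exons and motifs at the sites were therefore not assigned. Peaks were narrow in both lists, with a median width of 491 bp in each and a largest width of 501 bp. ERG peaks covered 847677 bp and EWS peaks 866246 bp. With 1 list per antibody there is no replicate check on the overlap itself, and the intervals below (exact Clopper-Pearson, 95%) cover counting error only.

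The shared sites made up 2.18% of the ERG peaks (1.54% to 2.98%) and 2.13% of the EWS peaks (1.51% to 2.91%). These shares are a description of the sites, since the overlap is what defined them. Few further pairs came close to overlapping. An EWS peak lay within 100 bp of 40 ERG peaks and within 1 kb of 48 (2.75%, 2.03% to 3.63%), so that extending the distance from overlap to 1 kb added 10 peaks. The count then grew with distance, to 146 ERG peaks within 10 kb (8.36%, 7.11% to 9.76%), 658 within 100 kb (37.7%) and 1419 within 1000 kb (81.3%, 79.4% to 83.1%). The median distance from an ERG peak to the nearest EWS peak of its chromosome was 182 kb, and that from an EWS peak to the nearest ERG peak was 277 kb.

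**Figure D1:**
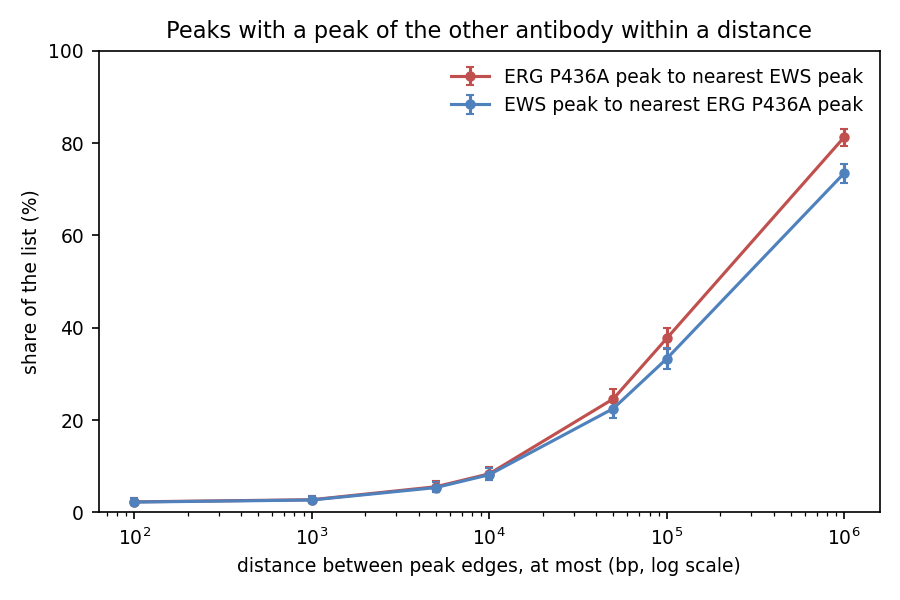
Share of ERG P436A peaks (red) and of EWS peaks in the same cells (blue) that have a peak of the other antibody within the distance on the x axis (bp between peak edges, log scale), with exact 95% binomial intervals. For ERG the curve is nearly flat up to 1 kb, at 2.75%, and reaches 8.36% at 10 kb and 81.3% at 1000 kb.

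The nearest pairs that did not overlap stood 75 bp apart at chromosome 1, 195755257 to 195756327, and 89 bp apart at chromosome 9, 132095832 to 132096909. The latter ERG peak was number 22 of its list, and the place had peaks of both wild-type ERG replicates and of VCaP ERG as well. Just inside the limit were the sites of chromosome 10, with 27 bp in common, and of chromosome 6, with 99 bp. The peaks covered much the same bases at the larger number of sites. The overlap ran from 27 to 491 bp with a median of 420.5 bp, against peak widths of 438 to 501 bp for ERG and 430 to 501 bp for EWS at these sites. It was over 400 bp at 20 sites, 300 to 400 bp at 10 and under 200 bp at 4. The centres of the ERG and EWS peaks were 3 to 451.5 bp apart (median 68.25 bp), within 50 bp at 16 sites and over 250 bp at 8. The EWS centre stood at the higher coordinate at 23 sites and at the lower at 15.

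**Figure D2:**
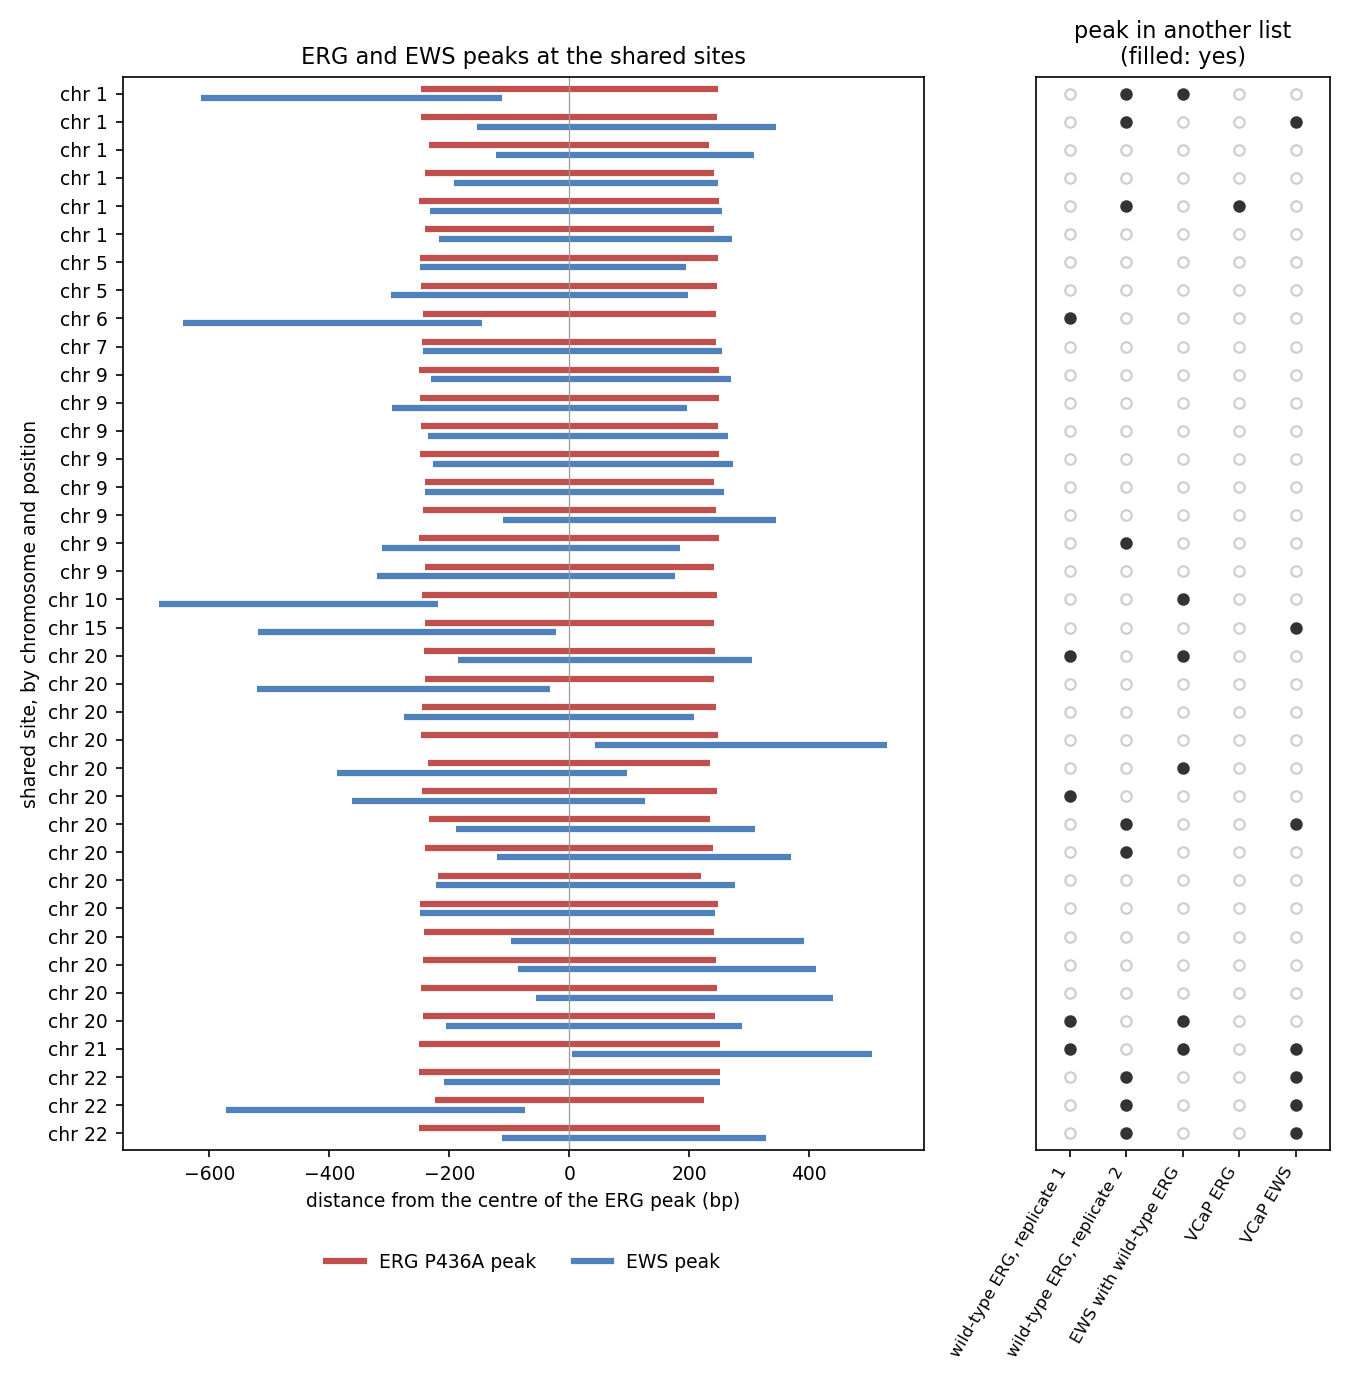
Left, the ERG P436A peak (red) and the EWS peak (blue) of each of the 38 shared sites, drawn to scale as distance in bp from the centre of the ERG peak and ordered by chromosome and position. Right, filled circles mark a peak of another list at the site. The peaks overlap by more than 400 bp at 20 sites, and 21 sites have no filled circle.

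The site group that stood out most was on chromosome 22, which was otherwise nearly empty. The ERG P436A list had 5 peaks on this chromosome and the EWS list had 4, and 3 of each met at shared sites between 29673837 and 29683263. The first lay at 29673837 to 29674337 with 459 bp in common, and the ERG and EWS peaks ended on the same base. The next, at 29678143 to 29678939, had 150 bp in common. The third, at 29682686 to 29683263, had 363 bp in common. The EWS peaks of these 3 sites were numbers 4, 3 and 2 of the EWS list and the ERG peaks numbers 91, 88 and 156 of the ERG list. The only other EWS peak of the chromosome, at 29669666 to 29670166 and number 6 of its list, lay next to them but had no ERG P436A peak.

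The same cluster appeared in some of the other lists and not in the rest. Wild-type ERG replicate 2 had 7 peaks within 10 kb of these sites, among them numbers 1, 4, 5, 6, 7, 9 and 10 of its list, and they were wide, from 1118 to 4593 bp. VCaP EWS had 3 peaks there, numbers 538, 3591 and 279 of its list, 1 at each of the shared sites. Wild-type ERG replicate 1, EWS with wild-type ERG and VCaP ERG had 0 peaks there, although VCaP ERG had 111 peaks elsewhere on chromosome 22. The cluster was thus seen with both antibodies and in both cell lines, and missed by a list of each antibody and of each cell line as well. Whether these peaks came from bound chromatin or from other DNA in the libraries was not tested, and the 3 sites are counted here only by the rule. Without chromosome 22 the shared sites numbered 35.

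Peak edges coincided between cell lines in this cluster. The VCaP EWS peaks at 29673879 to 29674337 and at 29682824 to 29683263 had exactly the start and the end of the RWPE1 EWS peaks at these sites. The VCaP EWS peak of the site between them had the same start, 29678143, and ended at 29678630 against 29678640. Such identity was rare: over all 21 pairs of lists, 2633 pairs of peaks overlapped and 5 had both edges in common. Of those 5, 3 were at the shared sites, the pair on chromosome 22 and 1 on chromosome 21, where the ERG P436A peak and a VCaP EWS peak both ran from 9825380 to 9825880. The 2633 include unlike lists: VCaP ERG, with peaks of up to 184765 bp, gave 975 of them with VCaP EWS and no edge in common. Between EWS of the P436A cells and VCaP EWS, 49 pairs overlapped and 2 had both edges in common.

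Whether the other lists had peaks at the shared sites more often than at other peaks was read against each whole list. The shared ERG peaks were chosen for having an EWS peak of these cells, so their shares with other EWS lists are a description. Wild-type ERG replicate 1 had a peak at 5 of the 38 shared ERG peaks (13.2%, 4.41% to 28.1%), close to the 12.7% among all ERG P436A peaks (11.1% to 14.3%). Wild-type ERG replicate 2 had a peak at 9 (23.7%, 11.4% to 40.2%), against 7.62% of all ERG P436A peaks (6.42% to 8.96%). VCaP EWS had a peak at 7 (18.4%, 7.74% to 34.3%), against 2.75% (2.03% to 3.63%). For replicate 2 and VCaP EWS the intervals did not overlap. Without chromosome 22, however, the counts were 6 of 35 for replicate 2 (17.1%, from 6.56%, against 7.47%, up to 8.80%) and 4 of 35 for VCaP EWS (11.4%, from 3.2%, against 2.58%, up to 3.44%), with overlapping intervals. EWS with wild-type ERG had a peak at 4 shared ERG peaks, against 4.93% of all, and VCaP ERG at 1, against 6.59%. In all, 22 of the 38 shared ERG peaks were in none of these 5 lists (57.9%, 40.8% to 73.7%), as were 73.4% of all ERG P436A peaks.

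Seen from the EWS list, the shared peaks were chosen for having an ERG P436A peak, and peaks of that list recur in wild-type ERG lists more often than EWS peaks do, so the shares below with ERG lists are a description. Of the shared EWS peaks, 21 were in none of the 5 other lists (55.3%, 38.3% to 71.4%), against 90.4% of all EWS peaks of these cells (88.9% to 91.7%). Wild-type ERG replicate 1 had a peak at 5 (13.2%, 4.41% to 28.1%) against 1.51% of all (0.999% to 2.19%), and replicate 2 at 9 (23.7%) against 2.35% of all (1.70% to 3.17%). Without chromosome 22, replicate 1 had 5 of 35 (14.3%, 4.81% to 30.3%) against 1.52% of all, up to 2.20%. Replicate 2 then had 6 of 35 (17.1%, 6.56% to 33.6%) against 2.13% of all, up to 2.92%. Neither pair of intervals overlapped. The 13.2% of replicate 1 is close to its 12.7% among all ERG P436A peaks. EWS with wild-type ERG had a peak at 6 (15.8%, 6.02% to 31.3%) against 4.48% of all (3.57% to 5.54%), and VCaP ERG at 1 against 0.672%. Without chromosome 22, EWS with wild-type ERG had a peak at 6 of 35 (17.1%, 6.56% to 33.6%). This stood against 4.49% of all (3.58% to 5.56%), and the intervals did not overlap. VCaP EWS had a peak at 7 (18.4%) against 2.74% of all, and without chromosome 22 at 4 of 35, where the intervals overlapped as on the ERG side.

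**Figure D3:**
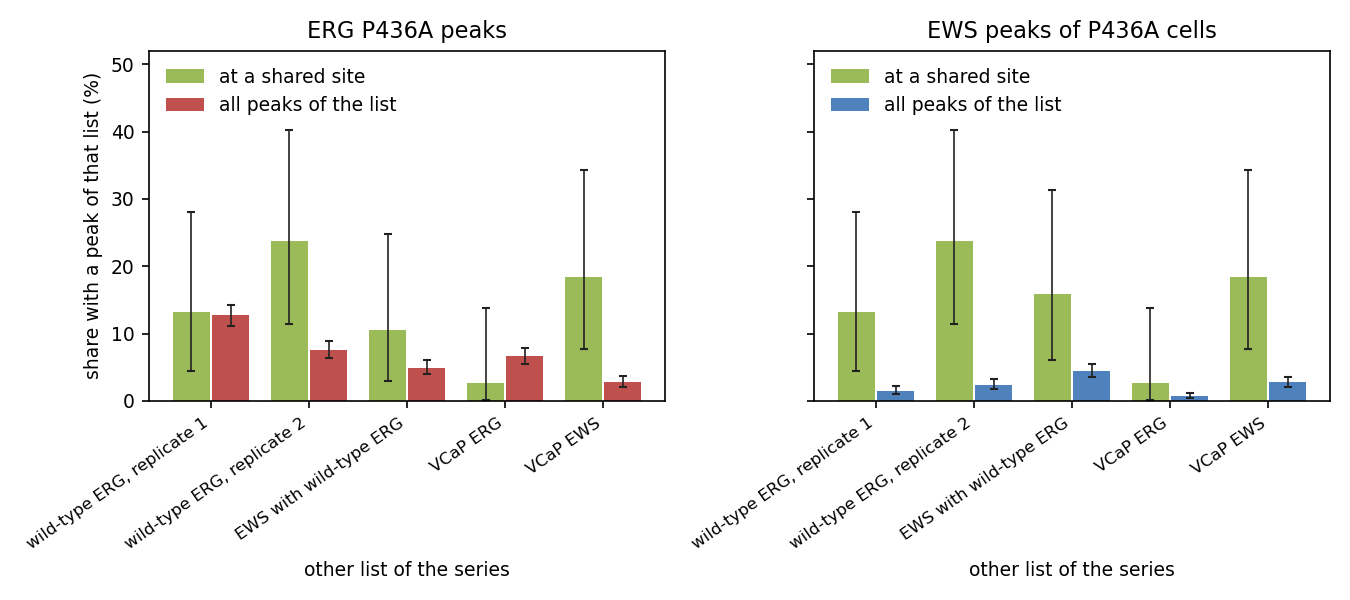
Share of peaks with a peak of each other list, for ERG P436A peaks (left) and EWS peaks of the same cells (right), at the 38 shared sites (green) and over the whole list (red or blue); lines are exact 95% binomial intervals. For ERG, shared sites stand above the whole list for wild-type replicate 2 (23.7% against 7.62%) and VCaP EWS (18.4% against 2.75%), and level with it for replicate 1 (13.2% against 12.7%). Without chromosome 22, not drawn, the ERG-side intervals overlapped for replicate 2 and for VCaP EWS. On the EWS side they then overlapped for VCaP EWS but not for replicate 2 (6.56% to 33.6% against 1.51% to 2.92%).

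No shared site had a peak of both wild-type replicates. Replicate 1 or replicate 2 had a peak at 14 of the 38 sites, 5 and 9 of them, and 0 of 38 had both, which allows a share of up to 7.89%. Among all ERG P436A peaks, 52 (2.98%) were in both replicates, so that 0 of 38 is not distinguishable from that share. Of the 5 sites of replicate 1, 3 had a peak of EWS with wild-type ERG and 1 of these a peak of VCaP EWS. Of the 9 sites of replicate 2, 1 had a peak of EWS with wild-type ERG and 5 a peak of VCaP EWS, 3 of them in the cluster of chromosome 22. These counts are too small to compare and were not tested.

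Besides the 3 sites of chromosome 22, replicate 2 and VCaP EWS met at 2 more. The site of chromosome 1 at 166246262 to 166246852 was number 17 of the ERG list and number 5 of the EWS list, the highest combined place of any shared site, and had 400 bp in common. The replicate 2 peak there was 1904 bp wide and number 3 of its list. The site of chromosome 20 at 37220217 to 37220760 had 423 bp in common but stood late in both lists, at 1398 and 1742. Its neighbour, described next, made this the closest pair of shared sites outside chromosome 22.

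Another 4 sites had a peak of replicate 2 without one of VCaP EWS. The neighbour on chromosome 20, at 37234102 to 37234711 with 360 bp in common, was in replicate 2 alone. So was the site of chromosome 9 at 139885625 to 139886187, with 434 bp in common. The site of chromosome 1 at 204380381 to 204380884, with 482 bp in common and centres 11 bp apart, was the only one with a VCaP ERG peak, which spanned 955 bp. The site of chromosome 1 at 144014114 to 144014974 had 135 bp in common. A replicate 2 peak there overlapped both mutant peaks, while a peak of EWS with wild-type ERG reached the EWS peak but not the ERG peak.

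Of the 5 sites of replicate 1, 3 also had a peak of EWS with wild-type ERG, so that ERG and EWS peaks met there in cells with either form of ERG. These were chromosome 20 at 29588397 to 29588944 (428 bp in common), chromosome 20 at 62542306 to 62542837 (449 bp) and chromosome 21 at 9825380 to 9826135 (246 bp). In the mutant lists they were numbers 187, 49 and 401 for ERG and 100, 46 and 7 for EWS. The chromosome 21 site also had a VCaP EWS peak, and with peaks of 3 other lists it was the most widely found of the 38. At the other pair of sites replicate 1 was the only other list. One was chromosome 6 at 164008722 to 164009610, with 99 bp in common and number 38 of the EWS list. The other was chromosome 20 at 34978498 to 34979105, with 373 bp in common.

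A further 3 sites had no wild-type ERG peak but an EWS peak of other cells. The peak of EWS with wild-type ERG at chromosome 20, 33224901 to 33225522, overlapped both mutant peaks, which had 331 bp in common. At chromosome 10, 74240688 to 74241617, it reached only the EWS peak, and this was the site with the smallest overlap, 27 bp. At chromosome 15, 25312147 to 25312905, a VCaP EWS peak overlapped both mutant peaks, which had 219 bp in common.

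The 21 sites in no other list included the tightest pairs of peaks. At chromosome 20, 42569459 to 42569955, the peaks started on the same base, had 491 bp in common and centres 3 bp apart, although they stood near the end of both lists, at 1743 and 1771. At chromosome 7, 118140568 to 118141067, they had 489 bp in common and stood at 347 and 158. Nearly identical positions were thus seen both early and late in the lists.

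Chromosome 9 held 7 of these 21 sites. The peaks had 481 bp in common at 66519201 to 66519720 and again at 117054095 to 117054592, where they started on the same base. They had 483 bp in common at 99146834 to 99147345, 476 bp at 104529274 to 104529795 and 445 bp at 72627992 to 72628536. Overlaps were smaller toward the end of the chromosome, with 355 bp at 136291075 to 136291663 and 418 bp at 140227173 to 140227734. The last of these had 5 other ERG peaks and 1 other EWS peak within 100 kb, while the site at 99146834 had none of either.

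Chromosome 20 held 8 of them, and here 3 had over 400 bp in common, as against 6 of the 7 on chromosome 9. The largest overlaps after the site at 42569459 were 453 bp at 32391939 to 32392458 and 438 bp at 40513814 to 40514312. The site at 32391939 was number 188 of the ERG list and number 11 of the EWS list, the earliest of the 21 in the EWS list. Overlaps were 339 bp at 49092355 to 49092988, 330 bp at 50474590 to 50475245 and 302 bp at 54792869 to 54793555. The smallest were 209 bp at 31643516 to 31644276 and 205 bp at 32554250 to 32555027. These last sites lay among the most crowded stretches of the chromosome, with up to 6 other EWS peaks and 4 other ERG peaks within 100 kb.

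Chromosomes 1 and 5 held the remaining 5. On chromosome 1 the peaks had 434 bp in common at 192200632 to 192201120, 457 bp at 220089608 to 220090118 and 356 bp at 173122919 to 173123459. The site at 192200632 was early in both lists, at 29 and 54, and had no other peak of either list within 100 kb. On chromosome 5 the peaks had 443 bp in common at 71748891 to 71749387, where they started on the same base, and 445 bp at 143393483 to 143394027. Across the 38 sites, 11 had no other peak of either list within 100 kb, and the others had up to 6 of each.

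The order of the lists is not documented as a ranking, so positions in it are given as a description. Shared sites were frequent at the head of the EWS list: 5 of its first 10 peaks (50%) and 10 of its first 100 were shared, against 2.13% of the whole list. Of those first 5, 3 were the cluster of chromosome 22. None of the first 10 ERG peaks was shared, and 5 of the first 100 were, against 2.18% of the whole list. Another 17 sites stood past position 1000 in both lists, and the rest lay between or stood early in only 1 of them. Of the 8 sites among the first 200 of both lists, 6 had a peak of another list, 3 of them in the cluster of chromosome 22. Of the 30 shared ERG peaks after the first 200, 10 did. Among all ERG P436A peaks, 26.6% had a peak of another list. That share was not computed for the first 200 ERG peaks by themselves.

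**Figure D4:**
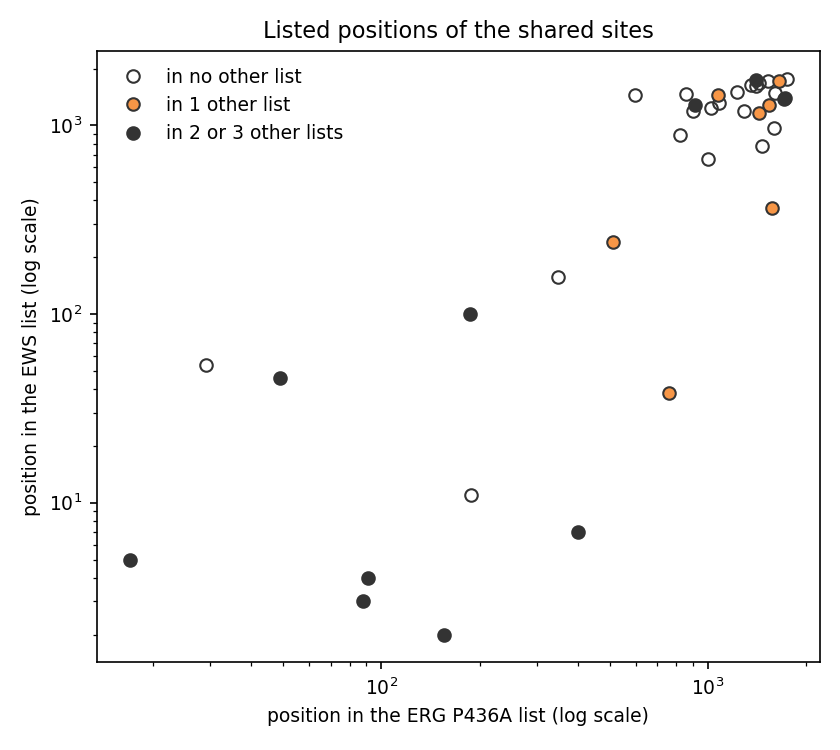
Position of each of the 38 shared sites in the ERG P436A list (x axis) and in the EWS list (y axis), both on log scales, with the fill showing in how many other lists the site was found. A first group of 8 sites lies within the first 200 of both lists, and 17 sites lie past 1000 in both. In the first group 6 sites have a peak of another list, 3 of them in the cluster of chromosome 22.

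Over the chromosomes, both lists were concentrated on the same 4. Chromosomes 1, 5, 9 and 20 held 994 ERG peaks (56.9%, 54.6% to 59.3%) and 1021 EWS peaks (57.2%, 54.8% to 59.5%). In the ERG list chromosome 20 led with 284 peaks (16.3%, 14.6% to 18.1%), followed by chromosome 1 with 266 (15.2%) and chromosome 5 with 235 (13.5%). In the EWS list chromosome 5 led with 330 peaks (18.5%, 16.7% to 20.4%), followed by chromosome 1 with 258 (14.4%) and chromosome 20 with 235 (13.2%, 11.6% to 14.8%). Chromosome 9 held 209 ERG and 198 EWS peaks. At the other end, chromosome X held 1 peak of each list, chromosome 22 held 5 and 4, and chromosome Y held 1 ERG peak and 0 EWS peaks. Large shares on chromosomes 1, 5, 9 and 20 were not particular to the P436A cells. Chromosome 1 held 21.4% of wild-type ERG replicate 1, 6.76% of replicate 2 and 21.1% of EWS with wild-type ERG. For chromosome 9 these shares were 6.26%, 19.4% and 7.35%, and for chromosome 20 they were 8.42%, 15.4% and 8.03%.

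The lists differed by chromosome in a few places. Chromosome 5 took a larger share of the EWS list than of the ERG list, 18.5% against 13.5% (11.9% to 15.2%). Chromosome 4 did too, with 58 EWS peaks (3.25%, 2.47% to 4.18%) against 24 ERG peaks (1.37%, 0.883% to 2.04%). Chromosome 17 went the other way, with 70 ERG peaks (4.01%, 3.14% to 5.04%) against 38 EWS peaks (2.13%, 1.51% to 2.91%). In these 3 the intervals of the lists did not overlap. No test was run, because neighbouring peaks are not independent. With wild-type ERG, chromosome 5 held 11.6% of ERG replicate 1, 12.8% of replicate 2 and 16.4% of EWS peaks, and chromosome 17 held 3.47%, 3.43% and 1.88%. The EWS share was thus above the ERG shares on chromosome 5 and below them on chromosome 17 in both kinds of cell. On chromosome 4 the wild-type replicates themselves ran from 1.79% to 4.05%. EWS with wild-type ERG was above both there, at 4.24% (3.73% to 4.80%). Its interval overlapped that of replicate 1 (3.21% to 5.04%).

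The shared sites did not follow the lists evenly. Where both lists are crowded their peaks have more chances to overlap, and the shares below do not allow for this. Whether any chromosome had an excess of shared sites was not tested. Chromosome 20 held 14 of them (36.8%, 21.8% to 54.0%), against 16.3% of the ERG and 13.2% of the EWS list, and there 4.93% of the ERG peaks were shared (2.72% to 8.13%). On chromosome 9, 8 were shared, or 3.83% of its ERG peaks (1.67% to 7.40%), and on chromosome 1, 6 were, or 2.26% (0.832% to 4.84%). Chromosome 5, with the most EWS peaks, had 2 shared sites, 0.851% of its ERG peaks (0.103% to 3.04%). A group of 14 chromosomes had none, although they held 531 ERG peaks (30.4%) and 507 EWS peaks (28.4%). These chromosomes were grouped because they had none, so their 0 is a description.

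**Figure D5:**
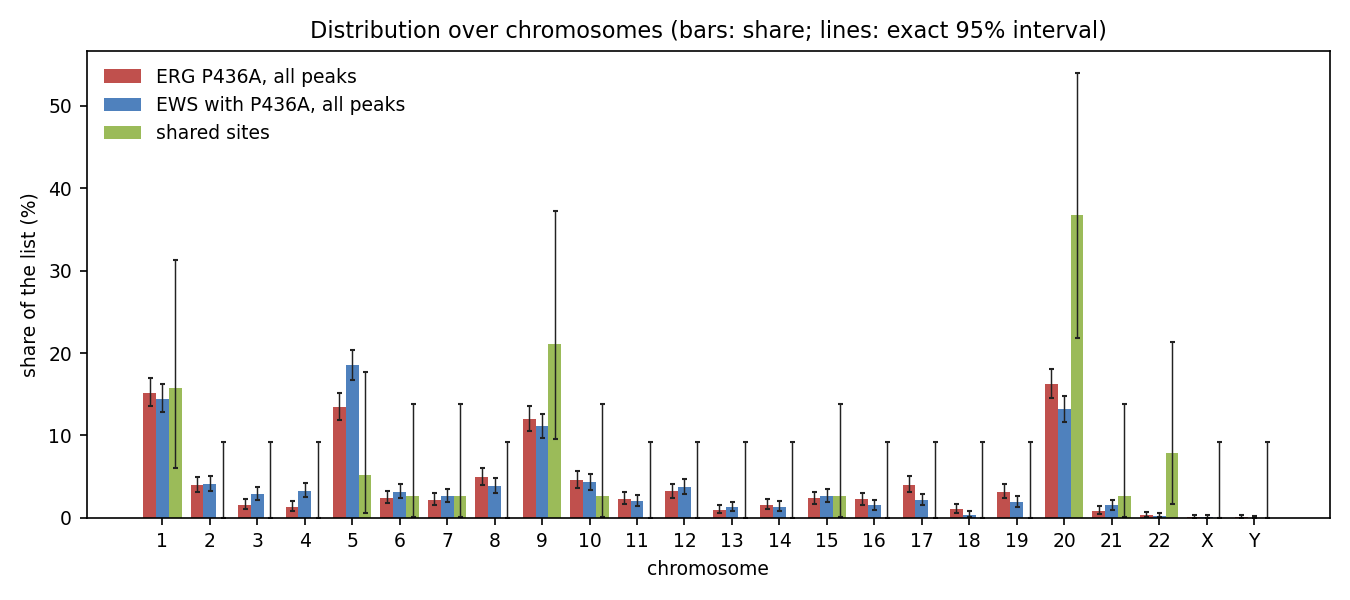
Share of the ERG P436A list (red), of the EWS list (blue) and of the 38 shared sites (green) on each chromosome, in percent, with exact 95% binomial intervals. Chromosome 20 holds 36.8% of the shared sites against 16.3% of ERG and 13.2% of EWS peaks, and chromosome 5 holds 5.26% of them against 13.5% and 18.5%. The shares do not allow for crowding of both lists on a chromosome.

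Within the chromosomes both lists were uneven as well, and many crowded stretches had no shared site. On chromosome 20, 270 of the 284 ERG peaks, 209 of the 235 EWS peaks and all 14 shared sites lay between 29 and 64 Mb. The ERG list was densest at 32 to 33 Mb and at 62 to 63 Mb, each with 19 ERG peaks, and at 30 to 31 Mb with 18. These held 14, 3 and 6 EWS peaks and 2, 1 and 0 shared sites. The EWS list was densest on chromosome 1 at 199 to 200 Mb, with 23 EWS peaks, 8 ERG peaks and 0 shared sites. It was next densest on chromosome 20 at 31 to 32 Mb, with 16 EWS peaks, 6 ERG peaks and 1 shared site. Level with chromosome 20 at 32 to 33 Mb was chromosome 1 at 196 to 197 Mb, with 14 EWS peaks, 6 ERG peaks and 0 shared sites. The longest run of megabases with peaks of both lists and no shared site, by ERG peaks held, was on chromosome 1 from 195 to 204 Mb. It held 88 ERG and 86 EWS peaks, and it was chosen for having no shared site.

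Over the genome, 1302 megabases held a peak of either list, 794 an ERG peak, 932 an EWS peak and 424 both. These 424 contained 1213 ERG peaks (69.5%) and 1086 EWS peaks (60.8%), and 34 of them (8.02%) contained a shared site. Of the 59 megabases with at least 10 peaks of the lists together, 45 had no shared site, and 16 of the 38 sites were in the other 14. These 59 held 542 of the 1746 ERG peaks and 381 of the 1786 EWS peaks. A larger part of them (14 of 59) than of the 424 (34) contained a shared site. Crowded megabases give more chances to overlap, and whether they had an excess was not tested. Over the 1302 megabases, the peak counts of the lists had a Spearman rho of -0.06 and a Pearson r of 0.48. Megabases with no peak of either list were left out, which lowers the rho. It therefore does not show whether the lists rank together along the genome. Most peaks of each list lay in the 424 megabases with both, although most of the 1302 megabases did not hold both. Few peaks met on the same bases.

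Whether ERG P436A peaks had EWS less often than wild-type ERG peaks was compared separately for each wild-type list, and the answer changed with the EWS list used. EWS of the same cells was found at 38 of 1746 ERG P436A peaks (2.18%), at 176 of 1901 peaks of replicate 1 (9.26%) and at 63 of 1953 peaks of replicate 2 (3.23%). The odds ratio over the mutant was 4.58 for replicate 1 (3.19 to 6.74; two-sided Fisher's exact test, p = 3.36e-21) and 1.5 for replicate 2 (0.98 to 2.32, Fisher's exact p = 0.0549). The EWS list with wild-type ERG is the longer, at 5703 peaks against 1786, and a longer list gives more chances to overlap. Wider peaks do too. The median width was 491 bp for ERG P436A, 608 bp for replicate 1 and 501 bp for replicate 2. The widest peaks of these lists had 501, 5574 and 5985 bp. This comparison was not run with all peaks set to the same width. Read against the EWS list with wild-type ERG alone, 86 ERG P436A peaks had EWS (4.93%). The odds ratio then became 1.97 over replicate 1 (p = 3.43e-07 by Fisher's exact test) and 0.643 over replicate 2 (p = 0.00934 by Fisher's exact test).

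Read against the EWS list of the P436A cells instead, a setting added after the data were seen, 27 replicate 1 peaks (1.42%) and 42 replicate 2 peaks (2.15%) had EWS. The odds ratio over the mutant was then 0.648 for replicate 1 (0.379 to 1.09, Fisher's exact p = 0.103) and 0.988 for replicate 2 (0.618 to 1.58). Neither wild-type replicate thus kept its odds ratio on the same side of 1 over the EWS lists, although these last intervals include 1. Neighbouring peaks are not independent and do not replicate a condition, so these p-values are too small and compare lists, not forms of ERG. No direction for the mutant can be read from them.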

How the data were processed

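ChIP-seq peak lists of ERG and EWS were used as deposited. Per the submitters' processing notes, reads were aligned with Bowtie2, its version given as 0.12.8, to hg19. How peaks were called is not given in the sources used here. There is 1 list per sample, and the deposited values are positions in bp, with starts counted from 0 and converted to 1-based positions. Per the labels' protocols, DNA was sheared to about 150 nucleotides and size-selected at 200 to 300.

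Groups came from sample titles. Overlap meant at least 1 bp. Shares carry exact 95% intervals, and limits for a count of 0 use 3 counts. Each whole list served as the background for its shared peaks. Shares of wild-type and mutant lists were compared with Fisher's exact test. Every shared site was named, with the 3 leading chromosomes and megabases of each list (more at ties). Sites and comparisons were chosen with earlier results of these data known. Overlap code was tested on simulated data. Python 3.11.15, NumPy 2.4.6, SciPy 1.17.1 and Matplotlib 3.10.9 were used. Alternatives covered overlap rule, peak width, list length, EWS list, chromosomes and replicates. Gene annotation of the sites and the ERG protein sequence, which were planned, were not analysed here.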

Additional observations from a re-analysis of the deposited data

How the results depend on the processing

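The 38 shared sites numbered 30 with a reciprocal overlap of 0.5, 38 with centres within 500 bp, 38 with all peaks set to 500 bp and 37 with lists of equal length. They fell to 13 when the first 1000 listed peaks of each list were used, a setting that tests fewer peaks. With a reciprocal overlap of 0.5, sites with a wild-type ERG peak went from 5 to 3 for replicate 1, from 9 to 5 for replicate 2 and from 14 to 8 for either. Leaving out a replicate left 5 to 9 of these 14 sites. Without chromosome 22, a setting chosen after seeing the data, 35 shared sites remained and those with a VCaP EWS peak went from 7 to 4. Setting both forms against the EWS list of the P436A cells was also chosen after seeing the data. The odds ratio of wild-type ERG over ERG P436A then crossed 1. It went from 4.58 to 0.648 for replicate 1 (0.379 to 1.09) and from 1.5 to 0.988 for replicate 2 (0.618 to 1.58). Both of these last intervals include 1. The odds ratio of wild-type replicate 2 over ERG P436A reversed from 1.5 to 0.643 when both forms were set against the longer RWPE1 EWS list. The cause of these changes was not tested. Shares of the leading chromosomes stayed within their intervals when covered base pairs or regions merged within 10 kb were counted. Peaks per megabase of chromosome length were not computed, since hg19 lengths were not used here. No paired analysis was possible because the P436A cells have 1 list per antibody and share no replicate numbers with the wild-type lists. Depth is unknown, and the small number of sites limits every share.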
